A study of Mus musculus with 2 samples.

Results

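The adult hemoglobin genes of the mouse were followed in ribosome profiling libraries of spinal cord tissue. They are Hba-a1 (ENSMUSG00000069919) and Hba-a2 (ENSMUSG00000069917), which encode the alpha chain, and Hbb-bs (ENSMUSG00000052305) and Hbb-bt (ENSMUSG00000073940), which encode the beta chain. The rule that picks them uses identifiers and no measured value, and 3 of the 4 were listed among the 12530 genes of each table. Hbb-bt was listed in neither table, so it has no value here. Ribosome-protected fragments are the stretches of mRNA shielded by a ribosome when the rest is digested. There was 1 library of wild-type mice and 1 library of mice heterozygous for the missense allele C201R of Gars, GarsC201R/+, the gene of glycyl-tRNA synthetase. For each library the lysates of 3 animals were pooled. Age, sex, strain and perfusion are not stated in the labels. With 1 library per genotype there is no replicate check, so every comparison below is between these libraries, and every interval covers counting error only.

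Hemoglobin carries oxygen in red blood cells. It is assembled from alpha chains and beta chains, each of which holds a heme group. Adult alpha and beta chains are made almost wholly in the erythroid lineage. Immature red cells still hold ribosomes and globin mRNA after they have lost their nucleus. In nervous tissue, globin reads therefore usually come with the blood left in its vessels, although low globin expression in some neurons and glia has also been described. In lysates of whole tissue, a different number of globin-bearing cells and a different amount of globin mRNA per cell cannot be told apart. Ribosome-protected fragments alone also cannot separate either of these from a different number of ribosomes per globin mRNA.

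The alpha genes lie near each other on chromosome 11 of build GRCm38, on the plus strand. RefSeq places Hba-a1 at chr11:32283672-32284486 and Hba-a2 at chr11:32296492-32297310, with 12005 bases and 1 annotated gene, Hbq1b, between them. The beta genes lie on the minus strand of chromosome 7, Hbb-bt at chr7:103812524-103813923 and Hbb-bs at chr7:103826523-103827928. They are 12599 bases apart with no annotated gene between them. The 120 bases before each annotated start are shown to compare the promoters, which are nearly the same in the alpha genes and differ more in the beta genes. They lie before the transcribed region, so they do not show how reads can be assigned. Capitals mark CCAAT and CACCC on either strand and the TATA-like runs ATATAA and TATAAA.

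Hba-a1: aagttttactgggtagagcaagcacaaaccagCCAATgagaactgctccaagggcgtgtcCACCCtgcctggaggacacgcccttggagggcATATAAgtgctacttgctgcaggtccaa
Hba-a2: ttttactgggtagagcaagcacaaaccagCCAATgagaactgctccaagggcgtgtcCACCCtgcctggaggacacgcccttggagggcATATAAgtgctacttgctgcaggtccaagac
Hbb-bs: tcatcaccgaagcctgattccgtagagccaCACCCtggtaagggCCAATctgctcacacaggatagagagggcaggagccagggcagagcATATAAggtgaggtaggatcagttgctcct
Hbb-bt: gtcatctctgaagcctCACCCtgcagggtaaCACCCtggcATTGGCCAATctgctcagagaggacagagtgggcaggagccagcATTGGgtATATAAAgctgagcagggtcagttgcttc
These stretches come from RefSeq on build GRCm38.p6, each written 5′ to 3′ on the strand of its gene. They lie at chr11:32283552-32283671 for Hba-a1, chr11:32296372-32296491 for Hba-a2, chr7:103827929-103828048 for Hbb-bs and chr7:103813924-103814043 for Hbb-bt.

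Over the window of 300 bases that RefSeq gives around each start, Hba-a1 and Hba-a2 shared a single run of 297 bases, offset by the place of the annotated start. In the 50 bases after the start, the beginning of the transcribed region, the shared run was 47 bases with 0 mismatches. A short fragment from that stretch matches both alpha genes equally well. Hbb-bs and Hbb-bt were identical at 72.7% of aligned positions of the window, and their longest shared run was 14 bases. Most of the window lies before the start, and coding sequences were not compared, so this does not show whether beta reads can be told apart. How reads that match more than 1 place were counted is not given in the sources used here, so the split of reads between the alpha genes is uncertain. The same holds for any reads shared between the beta genes outside this window.

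Among the 250 bases before the start, each of the 4 genes held CCAAT and CACCC on at least 1 strand. CCAAT, a promoter element bound by general activators, was also present in 33.8% of the 32851 RefSeq windows of the same length. CACCC, the element bound by the erythroid factor KLF1 in beta-globin promoters, was present in 52.0% of them. On the strand of the gene, CCAAT began 76 bases before the start in Hbb-bs, 75 in Hbb-bt, 88 in Hba-a1 and 91 in Hba-a2. AGATAA, a form of the site bound by GATA factors, was found in 1 of the 4, Hbb-bs, and in 9.99% of all windows. TATAAA was found in 1 of the 4, Hbb-bt, and in 12.4% of all windows. The shorter GATAA, which lies within AGATAA, and ATATAA, which overlaps TATAAA in Hbb-bt, were added once the sequences had been seen. All 4 genes held both, against 22.6% and 9.10% of all windows. These matches describe letters only, and no reading of factor binding was made in this series.

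Counted globin reads were few in both libraries and more frequent in the heterozygous one. The 3 listed genes held 86 reads among 7770935 gene reads in the wild-type library, or 0.00111% (95% Clopper-Pearson interval 0.000885% to 0.00137%). They held 124 reads among 3491159 gene reads in the heterozygous library, or 0.00355% (0.00295% to 0.00423%). The heterozygous library thus held more globin reads in absolute number although it was sequenced less deeply. After TMM scaling, which equalises the bulk of the genes, the summed reads stood 3.08-fold higher in the heterozygous library (95% counting interval 2.33 to 4.12). On the log2 scale the ratio was 1.62 (1.22 to 2.04).

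Hba-a1 had 21 wild-type reads (95% Poisson interval 13.0 to 32.1) and 28 heterozygous reads (18.6 to 40.5). At the depth of the heterozygous library, the wild-type level would have given 9.79 reads. Its deposited level was 3.86 RPKM in the wild-type and 11.4 RPKM in the heterozygous library, where RPKM is a read number scaled to gene length and library depth. The intervals of these levels, for counting error only, were 2.39 to 5.90 and 7.56 to 16.4 RPKM. Its log2 ratio was 1.49 (95% counting interval 0.65 to 2.41).

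Hba-a2, the other alpha gene, had 37 wild-type reads (26.1 to 51.0) and 47 heterozygous reads (34.5 to 62.5), against 17.3 reads at an equal level. The RPKM was 8.57 (6.04 to 11.8) for wild type and 24.1 (17.7 to 32.0) for the heterozygotes. The log2 ratio was 1.43 (0.79 to 2.11), close to that of Hba-a1. For both alpha genes summed, which does not depend on how shared reads were split between them, the log2 ratio was 1.46 (0.96 to 1.99). The sum still depends on whether shared reads were counted at all, which is not given.

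Hbb-bs, the beta gene that was listed, had 28 wild-type reads (18.6 to 40.5) and 49 heterozygous reads (36.3 to 64.8), against 13.1 reads at an equal level. The RPKM was 5.72 (3.80 to 8.27) for wild type and 22.2 (16.4 to 29.3) for the heterozygotes. Its log2 ratio of 1.88 (1.21 to 2.63) was the highest of the 3, with an interval that overlapped those of both alpha genes. All 3 genes were thus higher in the heterozygous library, each by more than 2-fold in the point estimate. All 3 were read in the same pooled libraries, so they are not replicates of each other. The alpha genes also share sequence, so their values are not independent of each other.

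**Figure D1:**
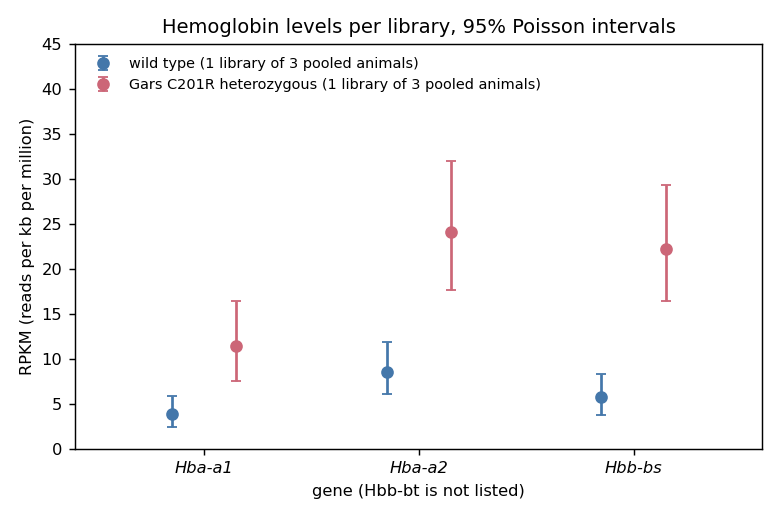
RPKM of the 3 listed hemoglobin genes (vertical axis) in the wild-type (blue) and heterozygous (red) library, with 95% Poisson intervals of the read number as bars. Wild-type levels lie between 3.86 and 8.57 RPKM and heterozygous levels between 11.4 and 24.1 RPKM. The bars cover counting error only.

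Within each library the order of the levels per length was Hba-a2, Hbb-bs and then Hba-a1. This order depends on the lengths used, and how much of each length is coding sequence is not given. By reads alone, Hbb-bs with 49 stood above Hba-a2 with 47 in the heterozygous library. In the wild-type library the RPKM of Hbb-bs was 0.668 of that of Hba-a2 (95% interval of the ratio 0.394 to 1.12) and 1.48 times that of Hba-a1 (0.813 to 2.75). Neither neighbour in that order was separated beyond counting error. In the heterozygous library Hbb-bs stood at 0.920 of Hba-a2 (0.604 to 1.40) and at 1.95 times Hba-a1 (1.20 to 3.22), so it was separated from Hba-a1 only. That separation also rests on how reads were assigned between the alpha genes, which is uncertain.

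Hba-a1 stood at 0.450 of Hba-a2 in RPKM for wild type (0.250 to 0.789) and at 0.472 for the heterozygotes (0.285 to 0.770). The lengths behind these RPKM values were 699 nt for Hba-a1, 554 nt for Hba-a2 and 628 nt for Hbb-bs. By reads alone, Hba-a1 took 36.2% of the wild-type alpha reads (24.0% to 49.9%) and 37.3% of the heterozygous ones (26.4% to 49.3%). The ratio of Hba-a1 to Hba-a2 reads changed by a factor of 1.05 between the libraries (0.486 to 2.28). A change in the split of the alpha reads was not detectable at this depth, and the interval allows a change of about 2-fold either way. The split carries the uncertainty of the read assignment described above.

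The balance of beta to alpha reads is independent of any scaling of the libraries. Hbb-bs reads were 0.483 times the summed alpha reads (0.296 to 0.770) for wild type and 0.653 times (0.446 to 0.949) for the heterozygotes. The heterozygous ratio was 1.35 times the wild-type ratio, with an exact conditional interval of 0.732 to 2.52. A difference in chain balance was not detectable at this depth. The interval still allows the ratio of beta to alpha reads to be lower or more than 2-fold higher, and reads of Hbb-bt are not in the beta number. Any shared reads that were left out of the counts are missing from these ratios too.

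By level, each listed hemoglobin gene ranked higher among the genes of the heterozygous library than among those of the wild-type library. In the wild-type library 70.7% of the listed genes had a higher RPKM than Hba-a1, 61.0% a higher RPKM than Hbb-bs and 49.5% a higher RPKM than Hba-a2. In the heterozygous library these shares were 42.0%, 24.9% and 23.2%. The lowest listed levels were 0.183 RPKM in the wild-type and 0.501 RPKM in the heterozygous library, below the hemoglobin levels in each library. Every listed gene had at least 1 read in each library. The rule by which genes were listed is not given. Whether it shifts the shares of genes called higher, above all among genes with few reads, was not tested.

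The rule for calling a gene asked for a total of at least 100 reads, a 95% interval clear of equal levels and a ratio of 1.5-fold or more. None of the 3 listed genes reached 100 reads, since they had 49, 84 and 77, so 0 of 3 could be called by this rule. It called 8.14% of the 9726 genes tested as higher in the heterozygous library. With no read minimum all 3 genes passed the interval and fold limits, against 11.0% of all 12530 genes. The median log2 ratio was 1.49 over the 3 genes and 0.0018 over all genes. The summed globin reads, 210 in number, passed every limit, but a sum of members is not one of the genes behind these shares.

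Genes with so few reads, like deeper ones, varied much more between the libraries than by counting error alone. For the 9726 genes with at least 100 reads, the robust SD of the log2 ratios was 0.44, against a median counting SD of 0.15. Among the 1771 genes with 40 to 99 reads, log2 ratios spread with a robust SD of 0.84, against a median counting SD of 0.39, and 20.7% passed the interval and fold limits as higher. With a limit of 2-fold, which the 3 globin genes also passed, the share was 12.9%. In the 87 of them that were at least 400 and under 900 nt long, like the globin genes, 29.9% passed and the robust SD was 1.09. Among the genes with 40 to 99 reads, 3.73% had a ratio at least as high as that of Hba-a1, 4.69% as high as Hba-a2 and 1.19% as high as Hbb-bs. Among the 87 short ones these numbers were 8, 9 and 3 genes, or 9.20%, 10.3% and 3.45%. Each globin gene was therefore in the upper part of the spread for its depth without lying outside it. These bands of reads and length were chosen after the values had been seen.

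**Figure D2:**
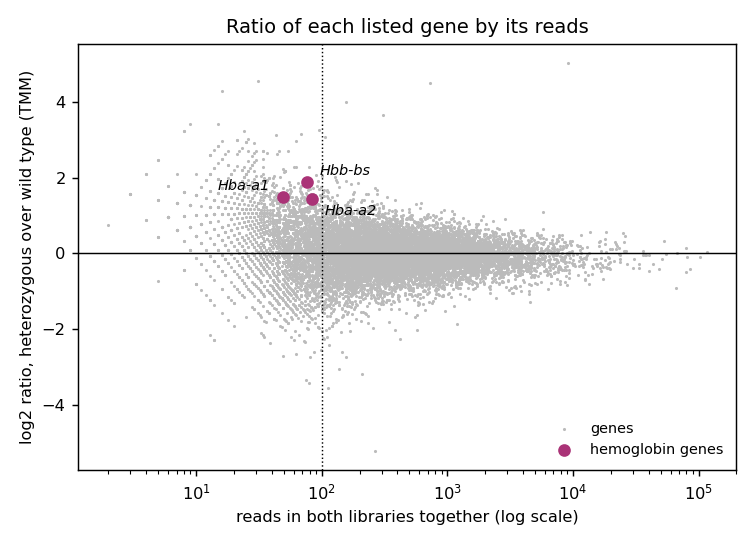
Log2 ratio after TMM scaling, heterozygous over wild type (vertical axis), against the reads in both libraries together (horizontal axis, log scale) for the 12530 listed genes in grey and the 3 hemoglobin genes in purple. The dotted line is the minimum of 100 reads, and the hemoglobin genes lie to its left, at ratios of 1.43 to 1.88, with some genes of like depth above them.

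**Figure D3:**
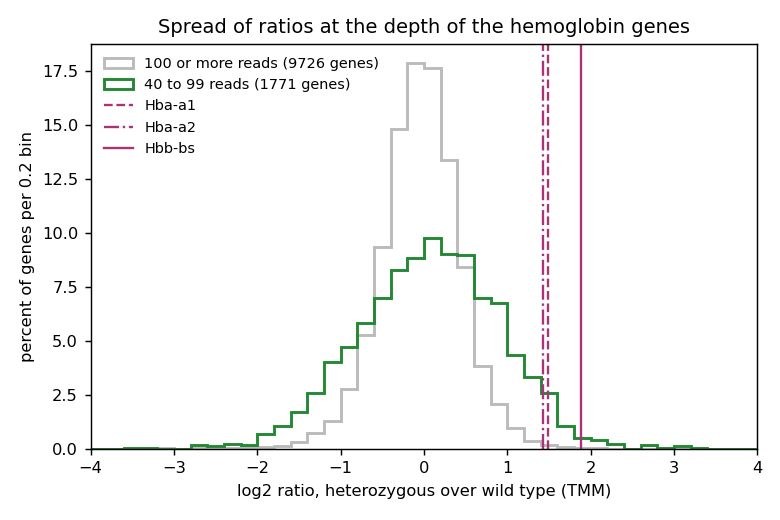
Distribution of the log2 ratio (horizontal axis) as the percent of genes per bin, for 9726 genes of at least 100 reads (grey) and 1771 genes of 40 to 99 reads (green), with the 3 hemoglobin genes as vertical lines. The green distribution is wider, with a 95th percentile of 1.41 against 0.73 for the grey one, and the hemoglobin genes lie just above 1.41 or, for Hbb-bs, at 1.88.

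Since each globin gene was higher on its own, leaving 1 out could change the size of the summed ratio but not its direction. Without Hba-a1 the log2 ratio of the summed reads was 1.65 (1.19 to 2.14), without Hba-a2 it was 1.74 (1.22 to 2.30), and without Hbb-bs it was 1.46 (0.96 to 1.99). With library sizes taken as total gene reads, the sum was at 1.67 (1.27 to 2.10). Scaling to the ERCC spike-ins, synthetic control RNAs, turned it to -4.92 (-5.34 to -4.52), because the heterozygous library held 94.3-fold more spike-in reads relative to its genes (86.4 to 103). The labels do not state whether spike-ins were added in equal amounts, so directions here are relative to the other mouse genes.

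**Figure D4:**
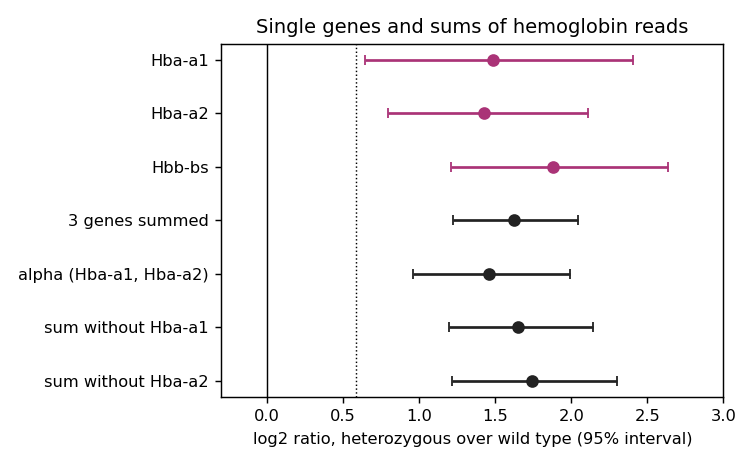
Log2 ratio, heterozygous over wild type (horizontal axis), with 95% counting intervals for the single hemoglobin genes (purple) and for sums of their reads (black). The solid line marks equal levels and the dotted line 1.5-fold, and every interval lies to the right of both, the lowest bound being 0.65 for Hba-a1.

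With only 2 libraries, likeness of pattern comes down to likeness of the ratio. Of the 1424 genes that reached 500 reads in each library, 1 had a ratio at or above that of the summed globin reads, ENSMUSG00000035202 at a log2 ratio of 5.01, which is 3.39 above. The nearest below was ENSMUSG00000058076, whose 538 wild-type and 546 heterozygous reads gave a log2 ratio of 1.12, lower by 0.50. No gene at this depth thus had a ratio close to that of the summed globin reads. The sum itself, with 86 wild-type and 124 heterozygous reads, did not reach this depth. Among the 9726 genes with at least 100 reads in both libraries together, 20 had a ratio at least as high as that of the sum. Ratios as high as that of hemoglobin therefore did occur in other genes at lower depth. The tables carry identifiers without names and the reference used here holds no Ensembl identifiers. Other red cell genes, heme enzymes, markers of white cells, platelets and vessels, and markers of spinal cord cells were therefore not analysed here. Whether other blood genes moved with hemoglobin was not tested, and neither was the labelled tissue against its markers.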

How the data were processed

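Per the submitters' processing notes, the tools were Bowtie 1.2.2 and HTSeq 0.9.1 and the build was GRCm38. Tool settings, strandedness and the treatment of reads with several matches are not given in these sources. Per the file headers, the authors deposited whole-number read counts and RPKM values per gene. Counts divided by RPKM give the product of gene length and total reads. The totals, 7790126 and 3520348 reads, were inferred as those that brought gene lengths closest to whole numbers.

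The counts of 12530 genes, without 18 spike-ins, were scaled with TMM (edgeR 4.0.16, R 4.3.3). Log2 ratios had a prior count of 0.5. Intervals at 95% were exact: conditional binomial for ratios, Poisson for counts and RPKM, and Clopper-Pearson for shares. Reads may not be independent molecules, which they do not cover. No p-value was computed, since there are no replicate libraries. The script behind the calls was tested on simulated data with counting error only, which gives no error rate for these libraries. Alternatives were other scalings (DESeq2 1.42.0 among them), read minimums, prior counts, fold limits, a 99% interval and thinning. Symbols of the 4 members came with their identifiers, and 0 identifiers matched the reference of 49997 genes. Genes were named as members or, by identifier, as nearest in ratio. The members and lists were chosen with earlier results of these data known, although the rule for the members uses identifiers and no measured value. Biopython 1.88 aligned the promoter windows (Python 3.11.15, scipy 1.17.1).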

Additional observations from a re-analysis of the deposited data

Results flagged for a closer look

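The ERCC spike-ins lie outside the mouse genes compared here and made up 0.650% of the listed reads in the heterozygous library, against 0.00669% in the wild-type library. Per 100 spike-in reads the wild-type library held 16.5 reads of the 3 listed hemoglobin genes and the heterozygous library 0.543. Their part in the hemoglobin difference was not tested.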

How the results depend on the processing

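The 3 globin genes and their sum kept their direction and stayed past the interval and fold limits under total-count, DESeq2 and upper-quartile scaling, without the gene above 1% of a library, with the wild-type library thinned, with a 99% interval and with a prior count of 2 or none. The sum lay between 1.43 (thinned) and 1.67 (total gene reads). Spike-in scaling, which shifts every gene by 1 common factor, gave -4.99 for Hba-a1, -5.08 for Hba-a2, -4.62 for Hbb-bs and -4.92 for the sum, with 0 genes called higher and 9726 lower. Against 792 genes higher and 1087 lower, no read minimum gave 1379 higher and 1353 lower and total gene reads 952 and 919, so that higher calls outnumbered lower ones. A minimum of 500 reads gave 158 and 348, and a 2-fold limit 166 and 267. The bands added later, with fewer genes by construction, gave 367 and 246 at 40 to 99 reads and 26 and 13 in the short genes. As a share of summed RPKM, which weights short genes more, the 3 listed globin genes made up 0.00499% of the wild-type and 0.0159% of the heterozygous library. Of gene reads they made up 0.00111% and 0.00355%. Reads of Hbb-bt, and any shared reads left out of the counts, are not in these shares. The planned gene lists lacked symbols to match and were not run. No replicate could be left out. No paired analysis was possible because each genotype has 1 library. Depth limits the precision, with at most 49 reads per globin gene and library.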
